A study of Mus musculus with 6 samples.

Results

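The aryl hydrocarbon receptor (AhR) pathway was described in normal livers and liver tumors of male C3H/HeN mice through 7 genes, the receptor Ahr, its partner Arnt, its repressor Ahrr, the Cyp1 enzymes Cyp1a1, Cyp1a2 and Cyp1b1, and the target gene Tiparp. All array probes named for these genes were taken, by the name in the array design or by the current symbol of the probe's accession, without regard to their values. They came to 12 of 55681 probes and 7 of 34741 gene names. The arrays held total RNA of 3 normal livers and of 3 macroscopic liver tumors carrying, by the study's methods, a Ha-ras mutation, each on its own SurePrint G3 Mouse GE array with 1 dye. All animals were males of 74 to 75 weeks without any treatment, taken from the control arm of a project on arsenic exposure in pregnancy, and had been kept on a standard diet and tap water. The labels give neither the Ha-ras status nor the animal of a sample, so normal and tumor tissue of one number were not treated as coming from one mouse, and the p-values measure the spread between these samples.

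The AhR is a transcription factor of the bHLH-PAS family that waits in the cytosol bound to the chaperone Hsp90 and its co-chaperones. When it binds a ligand, such as dioxin, a polycyclic aromatic hydrocarbon or certain tryptophan metabolites, it moves to the nucleus, dimerises with ARNT and binds DNA at the core motif GCGTG. CYP1A1, CYP1A2 and CYP1B1 are the monooxygenases by which the pathway is best known, AHRR competes with the receptor for ARNT, and TIPARP is an ADP-ribosyltransferase that restrains the receptor. In liver, Cyp1a2 is transcribed without added ligand, mainly by hepatocytes around the central vein, whereas Cyp1a1 is scarce until a ligand is given.

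The promoters of Cyp1a2, Cyp1a1 and Ahrr are shown because their 250-base windows hold none, 1 and several copies of the letters the receptor recognises. Sequence outside these windows was not searched. Each line gives the 250 bases before the annotated start in RefSeq (build GRCm38.p6), 5′ to 3′ on the strand of the gene, with the core motif GCGTG, searched on both strands, and the motif TATAAA, searched on the strand of the gene, in capitals. The windows are chr9:57683656-57683905 on the minus strand for Cyp1a2, chr9:57697363-57697612 on the plus strand for Cyp1a1 and chr13:74292332-74292581 on the minus strand for Ahrr.
Cyp1a2: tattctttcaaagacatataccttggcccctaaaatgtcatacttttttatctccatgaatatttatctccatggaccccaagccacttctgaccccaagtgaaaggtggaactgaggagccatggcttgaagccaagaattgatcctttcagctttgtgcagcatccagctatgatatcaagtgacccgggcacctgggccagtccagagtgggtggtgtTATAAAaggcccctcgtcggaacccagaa
Cyp1a1: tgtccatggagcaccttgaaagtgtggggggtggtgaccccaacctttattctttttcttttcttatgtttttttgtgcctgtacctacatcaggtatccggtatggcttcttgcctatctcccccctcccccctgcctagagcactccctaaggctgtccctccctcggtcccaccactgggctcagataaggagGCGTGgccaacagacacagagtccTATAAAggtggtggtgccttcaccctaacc
Ahrr: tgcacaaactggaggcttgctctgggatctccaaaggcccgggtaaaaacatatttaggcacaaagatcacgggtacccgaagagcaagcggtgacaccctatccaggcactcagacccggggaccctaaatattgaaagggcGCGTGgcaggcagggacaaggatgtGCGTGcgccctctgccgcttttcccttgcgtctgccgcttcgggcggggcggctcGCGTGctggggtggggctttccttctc

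The window of Cyp1a2 held no GCGTG and 1 TATAAA beginning 29 bases before the start. That of Cyp1a1 held 1 GCGTG, 54 bases before the start, and 1 TATAAA, 30 bases before it. That of Ahrr held 3 GCGTG, at 107, 82 and 27 bases before the start, 1 of them within the longer motif TNGCGTG. The windows of Tiparp, Arnt and Cyp1b1 held 1 GCGTG each, so 5 of the 6 members with a promoter in the table carried it, and Ahr had no entry. Of 32851 mouse promoters of the same length, 28.2% held GCGTG, 4.10% held TNGCGTG and 7.59% held TATAAA. These matches are letters in a short window and no measurement of binding. Cyp1a2 (chromosome 9, 57676937 to 57683655) and Cyp1a1 (chromosome 9, 57687928 to 57703824, a span that includes the window shown) are neighbours with 4272 bases between them, and their 60-base array probes shared no run longer than 7 bases.

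An expression value is the processed signal of a probe divided by the 75th percentile of its array, so that 1 stands for that percentile, and values of different probes are not on a common scale. A probe was tested when each of the 3 arrays of a group, normal or tumor, read it well above background. This held for 7 member probes of 4 genes (Ahr, Arnt, Cyp1a2 and Tiparp), which were well above background on all 6 arrays. The 75th percentile was 123.9 to 176.8 signal units in the normal livers against 171.0 to 182.6 in the tumors, no spot was saturated, and the median local background was 42 to 45 units in the normal livers and 22 to 23 in the tumors. The normal livers lay on 1 slide and the tumors on another, and the effects of slide and tissue cannot be told apart. All 8 hepatocyte markers passed the filter, with a summed expression value of 9504 to 10290 in the normal livers and 9441 to 9809 in the tumors. The median log2 fold change over all tested probes was −0.13 with the 75th percentile and 0.05 when the arrays were scaled by their spike-in probes, and the share of calls that were higher in the tumors was 37.8% and 61.9%, respectively.

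Cyp1a2 was strongly down-regulated in the tumor tissues. Its probe A_52_P595871 gave expression values of 29.1, 40.4 and 38.8 in the normal livers and 0.204, 4.80 and 5.98 in the tumors. Every tumor lay below every normal liver, and tumor 1 lay far below the other two. The mean was 36.1 ± 6.10 (SD, n = 3) in normal liver and 3.66 ± 3.05 (SD, n = 3) in tumor. The log2 fold change was −4.31 (SE 1.24, 95% confidence interval −7.29 to −1.33), a 19.8-fold fall of the geometric mean, with an adjusted p of 0.0393 in limma over all 24897 tested probes. The size of this fold rests in part on the low value of tumor 1. That value, 0.204, was well above background, but of the size of those of Cyp1a1, which lay near the detection limit. The depth of the fall in tumor 1 is therefore uncertain. The log2 fold change of Cyp1a2 was −3.70 with normexp background correction and −2.74 without tumor 1. The receptor itself was lower as well, by a smaller amount and at 1 of its 2 probes. Probe A_55_P2109613 of Ahr gave 8.37, 14.1 and 8.20 in the normal livers and 4.88, 6.26 and 5.48 in the tumors, so the groups did not overlap. The log2 fold change was −0.84 (SE 0.24, 95% confidence interval −1.41 to −0.28), with an adjusted p of 0.0361 in limma.

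**Figure D1:**
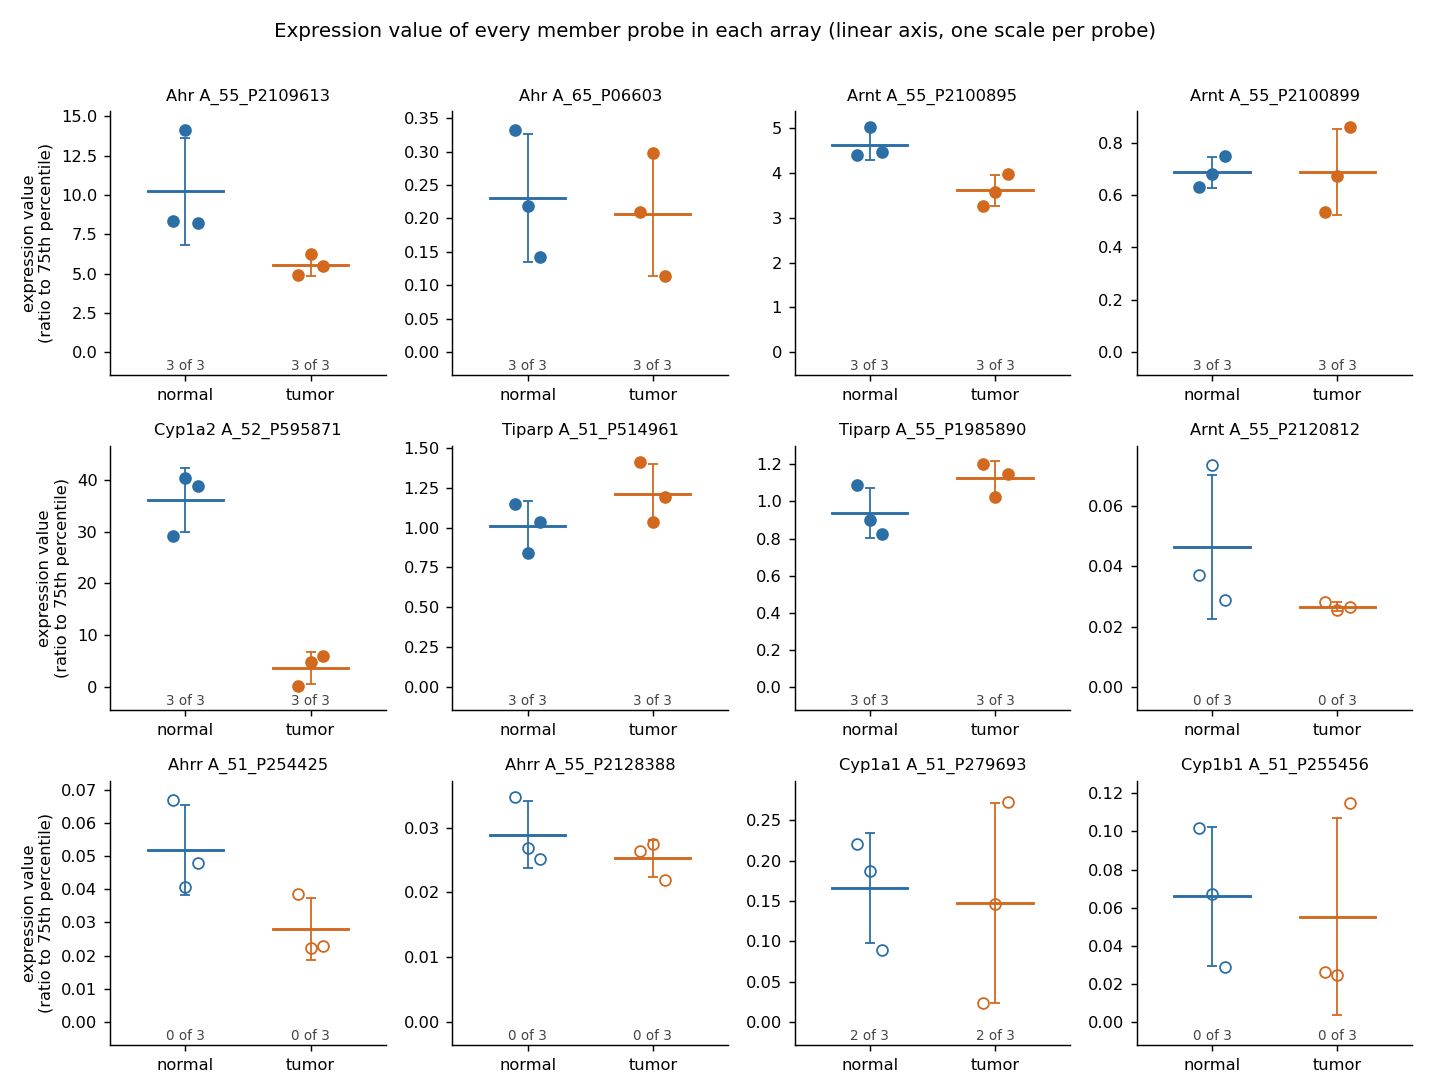
Expression value (ratio to the 75th percentile of the array, linear axis, one scale per panel) of each of the 12 member probes in the 3 normal livers (blue) and the 3 liver tumors (orange), with mean and SD as bars. Filled points mark groups in which all 3 arrays were well above background, and the line under each group gives how many were; Cyp1a2 falls from 29.1 or more to 5.98 or less, and the 4 probes marked 0 of 3 in both groups carry no measured level.

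Of the 7 tested member probes, 2 were called lower and 0 higher in the tumors at an adjusted p under 0.05, and 0 of 7 were higher at an unadjusted p under 0.05. Over all tested probes, 20.6% were called lower and 12.5% higher. The groups did not overlap for 3 of the 7 member probes, against 50.8% of all tested probes. With 7 probes, counts of 2, 0 and 3 lie near these shares or below them, and the number of calls is no result about the members.

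Both calls rested on the choice of processing, in different ways. For Cyp1a2 the size of the fall varied and its direction did not: the log2 fold change ranged from −5.18 to −2.74 over 16 alternatives. It passed the threshold without tumor 1 (−2.74, adjusted p 0.00103 in limma), and missed it without any 1 of the normal livers (adjusted p 0.0899 to 0.103), without the filter on dim probes (0.0995), with a variance trend and robust moderation (0.101) and in the methods' paired t-test (0.104). The bright Ahr probe missed it in 10 of 16 alternatives, among them quantile normalization (−0.75, adjusted p 0.0518), spike-in scaling (−0.67, adjusted p 0.144) and leaving out any array but normal liver 3. Normal liver 2 had the highest Ahr value, and without it the log2 fold change was −0.59 (adjusted p 0.0535 in limma).

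**Figure D2:**
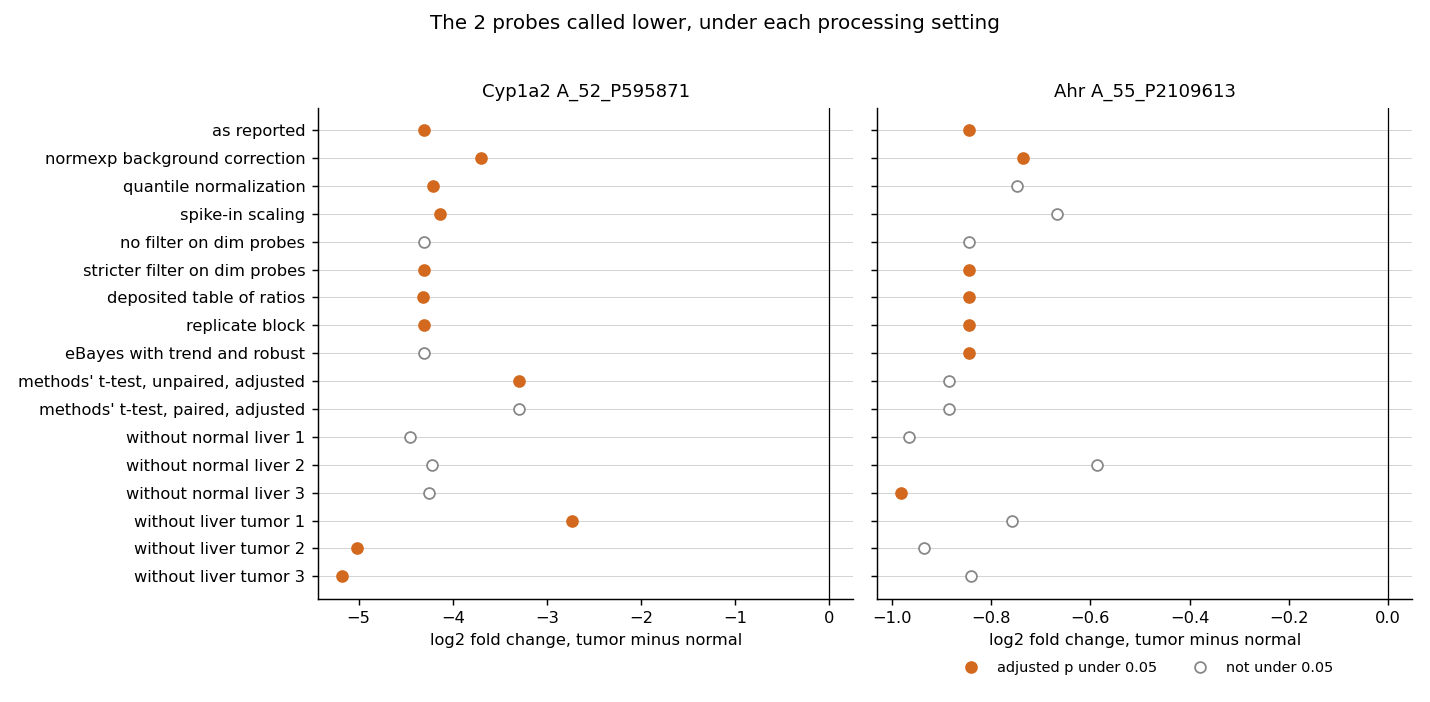
Log2 fold change, tumor minus normal, of Cyp1a2 probe A_52_P595871 (left) and Ahr probe A_55_P2109613 (right) as reported and under each of 16 other settings. Filled points have an adjusted p under 0.05, and all points of both probes lie below 0, those of Cyp1a2 between −5.18 and −2.74.

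The other probe of Ahr, A_65_P06603, whose target starts 5799 bases away from that of the first on the array design's assembly (mm9), showed no such difference. It gave 0.332, 0.219 and 0.142 in the normal livers and 0.209, 0.298 and 0.114 in the tumors, and the groups overlapped throughout. The log2 fold change was −0.18 (SE 0.43, 95% confidence interval −1.22 to 0.86, adjusted p 0.777 in limma), an interval that includes the value of the first probe. The 2 probes of the receptor thus did not give the same call, and the interval of the second is too wide to separate them. The second probe read well above background on every array, but its values were of the size of those of Cyp1a1, which lay near the detection limit.

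Arnt, the partner through which the receptor binds DNA, was read by 3 probes. Probe A_55_P2100895 gave 4.40, 5.04 and 4.48 in the normal livers and 3.28, 3.59 and 3.98 in the tumors. All 3 tumors lay below the normal livers, but the log2 fold change of −0.36 (SE 0.12, 95% confidence interval −0.66 to −0.07) had an adjusted p of 0.0645 in limma and was not called. Probe A_55_P2100899 gave 0.631, 0.679 and 0.750 in the normal livers and 0.534, 0.671 and 0.859 in the tumors, with a log2 fold change of −0.02 (SE 0.19, 95% confidence interval −0.48 to 0.44, adjusted p 0.944). The tumors lay on both sides of the normal livers. The sign of this value turned under spike-in scaling, where it was 0.16. The third probe, A_55_P2120812, did not rise well above background on any of the 6 arrays.

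Tiparp, the ADP-ribosyltransferase induced by the receptor, was not called at either of its probes. Probe A_51_P514961 gave 1.15, 0.841 and 1.04 in the normal livers and 1.41, 1.03 and 1.19 in the tumors. Its log2 fold change was 0.26 (SE 0.17, 95% confidence interval −0.15 to 0.68, adjusted p 0.284 in limma). Probe A_55_P1985890 gave 1.09, 0.899 and 0.825 in the normal livers and 1.20, 1.02 and 1.15 in the tumors. Its log2 fold change was 0.27 (SE 0.14, 95% confidence interval −0.08 to 0.61, adjusted p 0.196 in limma). At both probes the groups overlapped, and neither was called under any of the 16 alternatives.

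Cyp1a1, the most inducible enzyme of the family, was near the detection limit in both tissues. Probe A_51_P279693 gave 0.220, 0.188 and 0.0894 in the normal livers and 0.0240, 0.146 and 0.272 in the tumors. It was well above background on 2 of 3 arrays in each group and so did not enter the test. The tumors spanned the normal livers on both sides (p = 0.7, two-sided exact permutation test, in which 3 against 3 samples cannot give less than 0.1).

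Cyp1b1, which in many tissues is made by stromal rather than epithelial cells, and Ahrr, the repressor of the receptor, were not well above background on any of the 6 arrays. Probe A_51_P255456 of Cyp1b1 gave signals of 0.0289 to 0.102 in the normal livers and 0.0246 to 0.115 in the tumors. Probe A_51_P254425 of Ahrr gave 0.0406 to 0.0668 and 0.0222 to 0.0387, and probe A_55_P2128388 gave 0.0251 to 0.0348 and 0.0220 to 0.0275, respectively. At these levels, where the local background itself differed between the slides, no fold is given. A difference in these genes was not detectable with these probes, which does not show that their expression was equal.

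**Figure D3:**
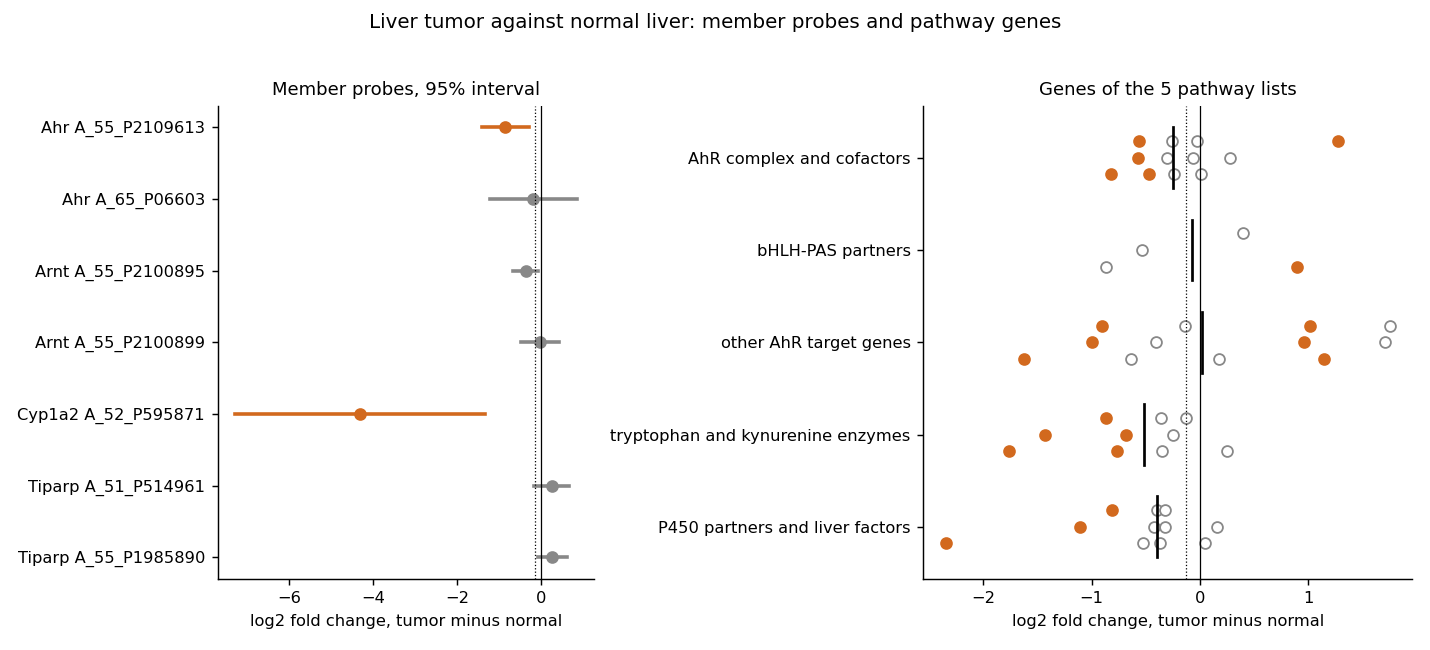
Log2 fold change, tumor minus normal, of the 7 tested member probes with their 95% confidence intervals (left) and of the 49 tested genes of the 5 pathway lists (right). Orange marks an adjusted p under 0.05, the black bar on the right is the median of a list, the solid line is 0 and the dotted line is the median of all tested probes (−0.13); the interval of Cyp1a2 lies from −7.29 to −1.33.

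The surrounding pathway was read through 57 further genes in 5 lists, of which 55 were on the array and 49 were tested, each by its brightest tested probe. Of these, 15 were called lower and 5 higher, against 21% of all 18565 tested genes called lower and 13.1% called higher. With spike-in scaling, 6 were lower and 7 higher, against 8.16% and 13.4% of all tested genes. The median log2 fold change over all tested genes was −0.13.

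Among 12 genes of the receptor complex and its cofactors, 4 were lower and 1 higher, with a median of −0.25. Hsp90aa1, a form of the chaperone that holds the receptor, fell from 39.5 ± 7.26 to 26.2 ± 0.794 (SD, n = 3; log2 fold change −0.57, adjusted p 0.0313 in limma). Ptges3, the co-chaperone p23, fell by 0.56 on the log2 scale, and all 4 of its probes were called. The coregulators Nrip1 and Ncoa2 fell by 0.82 and 0.47. The coactivator and acetyltransferase Crebbp rose by 1.27 at its brightest probe, while its other probe gave 0.45 and was not called. With spike-in scaling none of the 4 lower genes passed the threshold and the median was −0.07.

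Of 5 further bHLH-PAS proteins, 4 were tested and 1 was called, with a median of −0.07. Epas1, the hypoxia-inducible factor HIF-2α, rose from 65.1 ± 6.36 to 121.3 ± 15.1 (SD, n = 3; log2 fold change 0.90, adjusted p 0.00549 in limma). A second of its 3 probes gave 1.22 and was also called, and the third gave −0.09 and was not.

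The target genes of the receptor other than the members did not move one way. Of 17, 15 were on the array and 12 were tested, 3 were lower and 3 higher, and the median was 0.02. Slc46a3, a lysosomal transporter, fell from 42.6 ± 8.91 to 14.7 ± 6.32 (SD, n = 3; log2 fold change −1.62, adjusted p 0.0196 in limma). Ugt1a6b, a glucuronosyltransferase, fell from 422.3 ± 22.7 to 212.8 ± 30.2 and was called at both its probes; it belongs to a locus whose transcripts share exons, so its signal may include other Ugt1a forms. Nfe2l2, the regulator of the oxidative stress response, rose by 1.02, Cyp2s1 by 1.14 and Fmo2 by 0.95. Nqo1, a quinone reductase that both the receptor and Nfe2l2 induce, was not called and differed widely between tumors, with 0.330, 0.479 and 0.413 in the normal livers and 0.0237, 3.07 and 0.236 in the tumors. Nqo1 was well above background on 2 of the 3 tumor arrays. Its value in tumor 1 was of the size of those of the Ahrr probes, which were not well above background. With spike-in scaling 2 of the 12 tested target genes were lower and 5 higher.

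The enzymes of tryptophan breakdown, several of whose products bind the receptor, were called lower or not called. Of 12, 10 were tested, 5 were lower and none higher, and the median was −0.52. Afmid, which hydrolyses N-formylkynurenine, fell from 14.5 ± 1.24 to 4.34 ± 1.06 (SD, n = 3; log2 fold change −1.77, adjusted p 0.00187 in limma). Ido2, a dioxygenase of the first step, fell by 1.43 on the log2 scale, and the later enzymes Kynu, Haao and Kmo fell by 0.87, 0.77 and 0.68. Tdo2, the main first-step enzyme of hepatocytes, gave 25.4 ± 3.70 and 20.4 ± 6.29 and was not called. With quantile normalization 5 of the 10 were lower and 1 higher. With spike-in scaling 2 of the 10 were lower and the median was −0.34.

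Of 11 genes for partners of cytochrome P450 enzymes and for transcription factors of the liver, 3 were lower and none higher, with a median of −0.40. Nr1i3, the nuclear receptor CAR, fell from 26.7 ± 0.526 to 5.42 ± 1.66 (SD, n = 3; log2 fold change −2.35, adjusted p 0.00131 in limma), and both its probes were called. Cyb5a, cytochrome b5, fell by 1.11 and Rxra, the partner of CAR and other nuclear receptors, by 0.81. Por, the reductase that feeds electrons to these enzymes, gave 36.3 ± 7.35 and 24.99 ± 3.43 with an adjusted p of 0.0776 in limma. Hnf4a, a main regulator of hepatocyte genes, gave 186.4 ± 27.2 and 207.0 ± 17.9 and was not called. With spike-in scaling 2 of the 11 were lower.

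Cyp1a2 is one of the genes that hepatocytes around the central vein express, and its pattern was set beside others of that kind. Of 10 pericentral genes without Cyp1a2, 9 were tested, 8 were called lower and none higher, with a median of −2.84. With quantile normalization 5 were lower, and with spike-in scaling 9. Cyp2e1, another pericentral cytochrome P450, gave 1246 ± 22.1 and 248.2 ± 188.6 (SD, n = 3; log2 fold change −2.96, adjusted p 0.0467 in limma, 0.0592 with quantile normalization). Glul, glutamine synthetase, gave 50.1 ± 5.42 and 12.04 ± 8.05 (log2 fold change −2.44, adjusted p 0.0348). Of 8 periportal genes, 7 were lower and none higher, with a median of −1.14, and Cyp2f2 had the log2 fold change −3.41. With quantile normalization 5 of the periportal genes were lower, and with spike-in scaling 5. Of the 8 hepatocyte markers 1 was lower and 1 higher, with a median of −0.08, and Alb, albumin, gave 2273 ± 303.0 and 2169 ± 49.4. In bulk tissue, fewer cells of a type and less RNA per cell cannot be told apart.

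The tumors differed among themselves in the same order for Cyp1a2, the pericentral genes, the periportal genes and the enzymes of tryptophan breakdown. Against the mean of the normal livers on the log2 scale, Cyp1a2 stood at −7.45, −2.90 and −2.58 in tumors 1, 2 and 3. The median of the pericentral genes stood at −4.14, −2.01 and −1.66, and that of the periportal genes at −1.33, −0.97 and −0.95. For the enzymes of tryptophan breakdown it stood at −0.92, −0.47 and −0.35. The order was not particular to genes of hepatocytes: the median of the stellate cell and fibroblast markers stood at −0.97, −0.61 and −0.56. The hepatocyte markers stood at −0.06, −0.01 and −0.12. Within each array, Cyp1a2 minus the median of the 8 hepatocyte markers was −5.32, −4.82 and −4.90 in the normal livers and −12.45, −7.87 and −7.47 in the tumors. The groups differed by −4.25 in this measure, which does not depend on a scale factor per array, and by −2.65 without tumor 1. Ahr at its bright probe had its lowest value in tumor 1, at −1.02 against −0.66 and −0.85 in tumors 2 and 3. At its other probe Ahr stood at −0.06, 0.45 and −0.94 in tumors 1, 2 and 3, lowest in tumor 3.

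**Figure D4:**
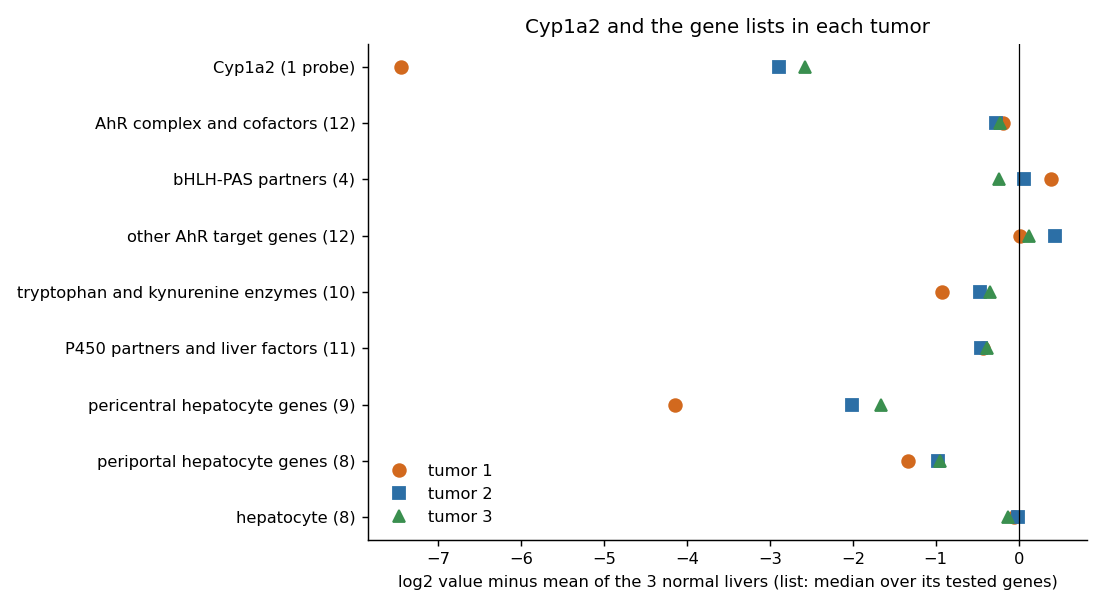
Log2 value in each of the 3 tumors minus the mean of the 3 normal livers, for Cyp1a2 and for the median of the tested genes (number in brackets) of the pathway lists, the pericentral and periportal genes and the hepatocyte markers. Tumor 1 lies at −7.45 for Cyp1a2 and at −4.14 for the pericentral genes, while the hepatocyte markers lie between −0.12 and −0.01 in all 3 tumors.

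The genes whose pattern over the 6 arrays was most like that of Cyp1a2 were found by the root mean square difference of log2 values after each gene was centred on its own mean. Among 18556 genes the median difference from Cyp1a2 was 2.64. The 5 nearest were Cyp2c38 (0.0763), Cyp2c54 (0.120), Cyp2c50 (0.130), Gm2788 (0.204) and Ces3b (0.206). Cyp2c38, Cyp2c54 and Cyp2c50 are cytochrome P450 genes of 1 family with similar sequences, so their probes may read each other's transcripts, and Ces3b encodes a carboxylesterase. Cyp2c38 gave 256.7, 313.6 and 309.1 in the normal livers and 1.78, 42.7 and 48.8 in the tumors. Ces3b gave 127.3, 118.5 and 118.8 in the normal livers and 0.765, 16.3 and 24.1 in the tumors. Gm2788 gave 7.44, 7.63 and 10.4 in the normal livers and 0.0384, 1.13 and 1.49 in the tumors. Its value in tumor 1 was of the size of those of the Ahrr probes, which were not well above background. These genes were chosen by their likeness to Cyp1a2 on these arrays, so the low value in tumor 1 follows from the choice. Cyp2e1 was at position 52 and Glul at position 116 in this order.

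**Figure D5:**
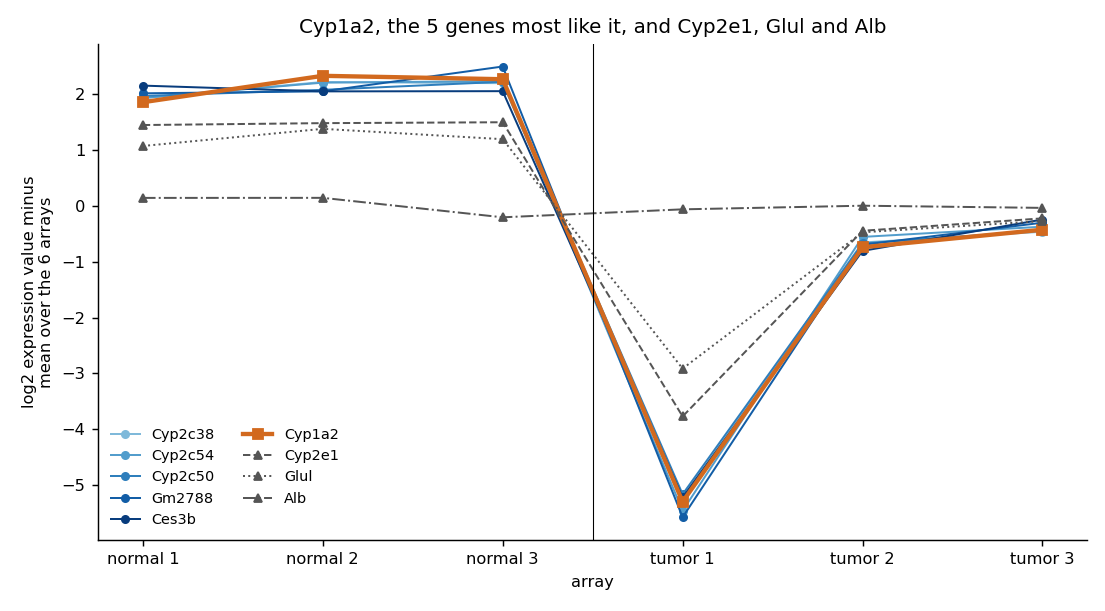
Log2 expression value of Cyp1a2 (orange), the 5 genes with the nearest pattern (blue), and Cyp2e1, Glul and Alb (grey) in each array, minus the mean of the gene over the 6 arrays; the lines between arrays only guide the eye. Cyp1a2 and its 5 nearest genes, which differ from it by a root mean square of 0.206 or less, drop deepest in tumor 1, whereas Alb stays near 0.

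Markers of other cell types were also read, since the tissues were not sorted. Of 6 macrophage markers 4 were lower and none higher, with a summed expression value of 72.7 to 115.9 in the normal livers and 36.9 to 58.3 in the tumors. Of 7 stellate cell and fibroblast markers 4 were lower and 2 higher, with sums of 81.1 to 100.1 and 23.0 to 43.1. Dcn made up most of these sums, and the other 6 markers summed to 3.67 to 5.31 in the normal livers and 5.19 to 5.92 in the tumors. Of 6 endothelial markers 1 was lower, with sums of 53.5 to 65.3 and 47.2 to 50.3. This was Stab2, called at 1 of its 3 tested probes, with 28.5 ± 4.93 and 16.5 ± 2.14 (SD, n = 3). Kdr, the other large part of the sum, gave 28.2 ± 2.89 and 28.0 ± 0.707. None of the tested cholangiocyte (4 of 6), lymphocyte (3 of 6) and neutrophil (3 of 4) markers was called. With spike-in scaling, 2 macrophage markers were lower, 2 stellate cell and fibroblast markers were lower and 2 higher, and 1 endothelial and 1 lymphocyte marker were higher and none lower. The neutrophil sum was 4.27 to 5.82 in the normal livers and 3.95 to 17.2 in the tumors. No marker of these types was below detection on all 6 arrays. The part of these cells in the values of Cyp1a2, Ahr and the pathway genes was not tested.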

How the data were processed

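RNA of 3 normal livers and 3 liver tumors was labelled with Cy3 and hybridised to 1-colour arrays. The authors deposited the output of Agilent Feature Extraction (10.7.3.1 in the file headers, 12.0.3.1 in the submitters' processing notes), whose processed intensity has had the background and a spatial trend removed, and a table of the ratio of this signal to each array's 75th percentile. The table differed from the ratios computed here by a median of about 0.03% and served as an alternative.

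Deposited intensities were divided by the percentile and taken to log2, control and outlier spots were dropped, and repeated spots were averaged. The 24897 of 55681 probes that all 3 arrays of a group read well above background were tested in limma 3.58.1 with lmFit and eBayes (R 4.3.3), two-sided, adjusted by Benjamini-Hochberg over these probes, at 0.05. A gene was read by its brightest tested probe. The fit was tested on simulated data. Tables and figures were made in Python 3.11.15 (pandas 2.3.3, numpy 2.4.6; scipy 1.17.1; matplotlib 3.10.9). The number of arrays limits the precision. RefSeq (GRCm38.p6) named 27235 probes by accession, 3581 by symbol and 565 by synonym, and 24300 kept the design's name. Gsta1 and Cyp2a5 had no probe by name.

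The members and gene lists were chosen with earlier results of these data known. Named are every member probe, up to 5 called genes of each pathway list with the largest change, Glul, Cyp2e1, Cyp2f2, Alb and the 5 genes most like Cyp1a2; Nqo1, Tdo2, Por and Hnf4a were added after their values were seen. Alternatives were normexp (offset 50), quantile normalization, scaling by 8 spike-in probes, no filter, a stricter filter, the deposited ratios, a replicate block, eBayes with trend and robust, the mean of a gene's probes, the methods' t-test unpaired and paired, and leaving out each array.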

Additional observations from a re-analysis of the deposited data

How the results depend on the processing

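Of the 7 tested member probes, 2 were called lower in the tumors; the count was 1 with quantile normalization, with spike-in scaling and in the methods' unpaired t-test, 0 without a filter on dim probes and in the methods' paired t-test, and 0 to 1 when 1 array was left out. No member probe was called higher under any of the 16 alternatives. Of the pathway genes, 15 lower became 6 with spike-in scaling and 0 in the paired t-test (12 to 14 without 1 array); 5 higher became 3 without a filter, 3 in the unpaired and 0 in the paired t-test, and 3 to 4 without 1 array, the lowest being without normal liver 1. The methods' paired t-test called 0 of all 24897 probes after adjustment, 7420 having an unadjusted p under 0.05, 2 of them member probes; the unpaired form also had 2 member probes with an unadjusted p under 0.05. Without 1 array, Ahr probe A_65_P06603 ranged from −0.50 to 0.20 and turned positive without normal liver 1 (0.12) and tumor 3. Arnt probe A_55_P2100899 turned to 0.16 with spike-in scaling and 0.0024 in both t-tests, and ranged from −0.20 to 0.15 without 1 array, positive without normal liver 3 (0.04) and tumor 1. Arnt probe A_55_P2100895 was called only with trend and robust (adjusted p 0.0413 in limma). The cause of these shifts was not tested.

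With the replicate number as a block, 2 member probes were still lower, pathway genes were 13 lower and 5 higher, and all probes 4215 lower and 2805 higher against 5126 and 3112 without the replicate block. Deviations of same-numbered samples correlated at 0.0687, 0.132 and 0.0507, and 2 of 3 correlated best with their own number, and the numbers were not taken as pairs. A slide block was not run, since each slide held 1 group. Probes not well above background on any array (Ahrr, Cyp1b1 and 1 of Arnt) gave no measured level.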
